A study of Mus musculus with 52 samples.

Results

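The genes described here are 8 genes of lymph node stroma and lymphocyte homing, out of 47729 gene identifiers counted in bulk RNA sequencing of mouse mammary tumours. They were taken by symbol: the chemokines Ccl19, Ccl21a and Cxcl13, the receptors Ccr7 and Cxcr5, the membrane cytokine Ltb, and the addressins Glycam1 and Madcam1. Each matched 1 Ensembl identifier, and all 8 passed the filter on low counts. The tumours were 4T1, a mammary carcinoma line of Balb/C origin, of which 100000 cells were placed in the 4th left mammary fat pad of Balb/C mice. Young mice were 8 to 10 weeks old (the protocol allows 12) and old mice were over 12 months. On days 7, 10 and 13 each mouse was injected in the peritoneum with 200 µg of antibody, 3 doses in all, of anti-CTLA4 (clone 9D9), anti-PD-L1 (clone 10F.9G2) or isotype control (clone LTF-2). Anti-CTLA4 and anti-PD-L1 block proteins that restrain T cells. Libraries numbered 7 for isotype, 10 for anti-PD-L1 and 12 for anti-CTLA4 in young mice. In old mice they numbered 7, 8 and 8 in the same order. The labels call the replicates of a group biological but name no animal, and p-values cover the spread from library to library.

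In lymph nodes, reticular stromal cells release CCL19 and CCL21, which draw T cells and dendritic cells that carry the receptor CCR7. Follicular stroma releases CXCL13, which draws B cells and follicular helper T cells that carry CXCR5. Lymphotoxin beta on lymphocytes signals to the stroma through its receptor and the non-canonical NF-kappaB pathway, and keeps those chemokines and the addressins expressed. Addressins on the vessel wall bind selectin or integrin on passing lymphocytes. The same genes mark lymphoid aggregates in chronically inflamed tissue, and the inguinal mammary fat pad of mice holds a lymph node.

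Libraries held 9549847 to 53778370 counts (median 20665733). Sequencing was done in 3 batches: young isotype came from batch 2 alone, old anti-PD-L1 from batch 1 alone, and old and young mice shared no batch under isotype or under anti-PD-L1. The normalization factors of edgeR's trimmed mean of M-values (TMM) ran from 0.618 to 1.21. They were under 0.8 in 4 libraries: young isotype replicates 1 and 6, old isotype replicate 3 and young anti-CTLA4 replicate 8. Keratins and other epithelial markers of the tumour were present in every library, with a mean log2 CPM over 7 genes of 5.44 to 7.73. Levels below are CPM, the share of a library's counts scaled by the TMM factors, or TPM where genes are compared with each other.

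Because the 8 genes moved together across libraries, as given below, the sequence before their starts is shown for 4 of them. The 250 bases before the RefSeq start site were searched on both strands for GGG and CC with any 5 bases between them, the core shared by many NF-kappaB sites, and for TATAAA. Capitals mark matches to that core on either strand, and the sequences read 5′ to 3′ along the gene. They are RefSeq windows of GRCm38.p6, which is a C57BL/6J genome, while the mice were Balb/C. RefSeq windows were matched for 6 of the 8 genes.
Cxcl13: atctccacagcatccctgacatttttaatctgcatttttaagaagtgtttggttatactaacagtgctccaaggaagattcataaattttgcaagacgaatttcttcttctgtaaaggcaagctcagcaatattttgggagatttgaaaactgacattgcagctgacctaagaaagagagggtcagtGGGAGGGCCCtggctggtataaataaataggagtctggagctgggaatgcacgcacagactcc
Madcam1: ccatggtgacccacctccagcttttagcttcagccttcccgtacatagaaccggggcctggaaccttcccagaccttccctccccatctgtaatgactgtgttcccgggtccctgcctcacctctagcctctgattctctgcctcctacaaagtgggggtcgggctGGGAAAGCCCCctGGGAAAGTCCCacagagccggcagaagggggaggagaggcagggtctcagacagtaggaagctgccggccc
Ccl21a: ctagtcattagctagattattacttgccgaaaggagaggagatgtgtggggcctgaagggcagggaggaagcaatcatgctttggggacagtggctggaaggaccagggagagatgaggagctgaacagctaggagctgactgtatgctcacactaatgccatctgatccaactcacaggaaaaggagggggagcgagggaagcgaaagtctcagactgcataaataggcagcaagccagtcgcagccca
Glycam1: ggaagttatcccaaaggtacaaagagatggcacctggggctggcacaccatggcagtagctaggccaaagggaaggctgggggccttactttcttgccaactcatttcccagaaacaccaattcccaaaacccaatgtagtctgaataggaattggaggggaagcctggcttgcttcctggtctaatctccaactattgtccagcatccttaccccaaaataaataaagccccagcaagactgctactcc
The Cxcl13 window is chr5:95956689-95956938 on the plus strand, and its match lies at -63 to -54, counting the base before the start as -1, with a TATAAA at -46 to -41. The Madcam1 window is chr10:79664309-79664558 on the plus strand, and its overlapping matches form a stretch from -84 to -74 and another from -71 to -61. The Ccl21a window is chr4:42773992-42774241 and the Glycam1 window chr15:103565082-103565331, both on the minus strand, and neither holds these letters. In Ltb the matches were GGAAAGTCCC at -87 to -78 and overlapping ones from -40 to -29, and in Ccl19 the match was GGGAAGACCC at -250 to -241. The RefSeq windows of Ltb and Ccl19 overlap the gene spans given below, and that of Ccl21a does so at its last bases. The Ltb matches from -40 to -29 lie inside the Ltb span. Over all 32851 RefSeq promoter windows of that length, 45.8% held the core and 12.4% held TATAAA. A match describes the letters, and no match says only that they are not in that window.

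Ccl21a and Ccl19 were under 1 CPM in most tumours and high in a minority of each group, while Cxcl13 was at 10 CPM or more in 30 of 52 libraries. Ccl21a, the T zone chemokine that lymphatic and high endothelial vessels present (protein-coding, GRCm38 chr4:42772860-42773993, minus strand), was at 0 counts in 13 of 52 libraries, under 1 CPM in 28 and at 10 CPM or more in 16. A count of 0 allows up to 0.103 to 0.318 CPM in these libraries at 3 counts, for counting error only. In young mice its lowest, median and highest CPM were 0, 0.259 and 78.0 under isotype, 0, 0.142 and 303.5 under anti-PD-L1, and 0, 0.912 and 337.9 under anti-CTLA4. In old mice they were 0, 0.399 and 172.6 under isotype, 0, 1.82 and 133.5 under anti-PD-L1, and 0.209, 7.58 and 96.5 under anti-CTLA4. Every group held libraries near 0 beside libraries far higher, so all groups overlapped. The 16 libraries at 10 CPM or more came from all 6 groups: 2, 2 and 4 from young isotype, anti-PD-L1 and anti-CTLA4, and 2, 3 and 3 from the old groups in the same order. In bulk tissue fewer cells of a type and less RNA per cell cannot be told apart. Near-identical copies make Ccl21a counts uncertain: Ccl21b had at most 2 counts in a library, while Ccl21c and Ccl21d matched no identifier.

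Ccl19, the other CCR7 ligand (chr4:42754525-42756577, minus strand, 1 locus with Ccl21a), rose and fell with Ccl21a over the libraries (r = 0.91 of log2 CPM) and reached a lower maximum. It was at 0 counts in 3 libraries (up to 0.125 to 0.163 CPM each), under 1 CPM in 30 and at 10 CPM or more in 14. In young mice the lowest, median and highest CPM were 0.0864, 0.849 and 18.8 under isotype, 0, 0.553 and 31.6 under anti-PD-L1, and 0.396, 1.11 and 45.6 under anti-CTLA4. In old mice they were 0.0921, 0.233 and 23.0 under isotype, 0, 0.277 and 21.8 under anti-PD-L1, and 0.313, 1.42 and 16.3 under anti-CTLA4. The groups overlapped, and their highest libraries were mostly those that led Ccl21a. On the TPM scale, Ccl21a was 0.707 to 7.61 times Ccl19 (median 5.34) in the 17 libraries with at least 50 counts of both. The noncoding gene 4930578G10Rik overlaps both chemokines on the opposite strand, with at most 7 counts in a library.

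Cxcl13, the B cell follicle chemokine (chr5:95956951-95961068, plus strand), was detected in every library. Young isotype libraries had a lowest, median and highest CPM of 0.346, 1.56 and 36.7, young anti-PD-L1 0.283, 2.53 and 138.2, and young anti-CTLA4 0.930, 17.8 and 131.3. Old isotype had 6.51, 20.2 and 189.7, old anti-PD-L1 0.435, 10.9 and 111.6, and old anti-CTLA4 9.33, 32.8 and 54.0. Old anti-CTLA4 had the highest median and the smallest ratio of highest to lowest library, and all 7 old isotype libraries lay above the young isotype median, with overlap at the top of the young group. In young anti-PD-L1 replicate 4 Cxcl13 was at 80.7 CPM while Ccl21a was at 0 counts and Glycam1 at 0.286 CPM. That library was singled out after its values were seen.

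The receptors are carried by the lymphocytes and dendritic cells that the chemokines draw. Ccr7 (chr11:99144196-99155077, minus strand), the receptor of Ccl19 and Ccl21, was at 7.03, 10.6 and 43.6 CPM (lowest, median, highest) in young isotype, 5.94, 9.42 and 54.6 in young anti-PD-L1, and 11.2, 19.2 and 97.4 in young anti-CTLA4. It was at 6.30, 10.1 and 37.7 CPM in old isotype, 4.41, 9.14 and 39.2 in old anti-PD-L1, and 6.11, 13.5 and 27.98 in old anti-CTLA4. Young anti-CTLA4 had the highest median, led by replicates 7 and 8, and the groups overlapped. With batch fitted, its log2 difference in Ccr7 was -0.15 ± 0.66 (SE) from young isotype and 0.03 ± 0.59 from young anti-PD-L1. Cxcr5 (chr9:44511787-44561877, minus strand), the Cxcl13 receptor of B cells and follicular helper T cells, ran in young mice from 0.463 to 19.2 CPM under isotype (median 1.08), 0.175 to 43.0 under anti-PD-L1 (median 0.783) and 0.653 to 66.8 under anti-CTLA4 (median 1.76). In old mice it ran from 0.719 to 23.6 CPM under isotype (median 2.91), 0.326 to 37.4 under anti-PD-L1 (median 0.889) and 0.651 to 16.4 under anti-CTLA4 (median 4.66). Medians differed by less than the range within any group. Bcl9l overlaps Cxcr5 on the opposite strand with a median of 1040 counts, so low Cxcr5 counts are uncertain unless the authors' estimates used strand, which is not given.

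Ltb, the membrane-bound lymphotoxin beta of lymphocytes (chr17:35194439-35196320, plus strand), had the highest median of the 8 genes on the TPM scale. Its lowest, median and highest CPM were 15.1, 27.6 and 80.3 in young isotype, 12.6, 18.9 and 163.8 in young anti-PD-L1, and 23.3, 54.5 and 313.9 in young anti-CTLA4. In old mice they were 10.3, 23.4 and 89.3 under isotype, 3.48, 15.7 and 78.8 under anti-PD-L1, and 12.8, 24.3 and 54.1 under anti-CTLA4. Young anti-CTLA4 stood above the other groups by its median and by replicates 7 and 8, at 205.0 and 313.9 CPM, but its lower libraries overlapped every other group. These CPM are not adjusted for batch. With batch fitted, the log2 difference of young anti-CTLA4 was 0.17 ± 0.75 (SE) from young isotype and 0.21 ± 0.67 from young anti-PD-L1. Neither was called (edgeR adjusted p = 0.987 and 0.916). The microRNA gene Mir6973a lies in Ltb on the same strand, with at most 24 counts in a library.

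Glycam1, a mucin-like ligand of L-selectin made by high endothelial venules and also a milk protein of the lactating mammary gland (chr15:103562759-103565081, minus strand), had the widest range in CPM. In young mice its lowest, median and highest CPM were 0.259, 6.12 and 108.0 under isotype, 0.286, 6.09 and 128.5 under anti-PD-L1, and 0.277, 2.47 and 535.6 under anti-CTLA4. In old mice they were 0.118, 0.645 and 145.5 under isotype, 0.0543, 16.0 and 118.6 under anti-PD-L1, and 0.366, 15.4 and 150.5 under anti-CTLA4. All groups spanned low and high libraries and overlapped. Madcam1, the addressin bound by integrin alpha4 beta7 (chr10:79664559-79668537, plus strand), was the lowest of the 8 genes on the TPM scale and never exceeded 5.45 CPM. Its group medians lay between 0.143 CPM in young anti-PD-L1 and 0.698 CPM in old anti-CTLA4. It was at 0 counts in 2 libraries, which allows up to 0.123 to 0.245 CPM.

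**Figure D1:**
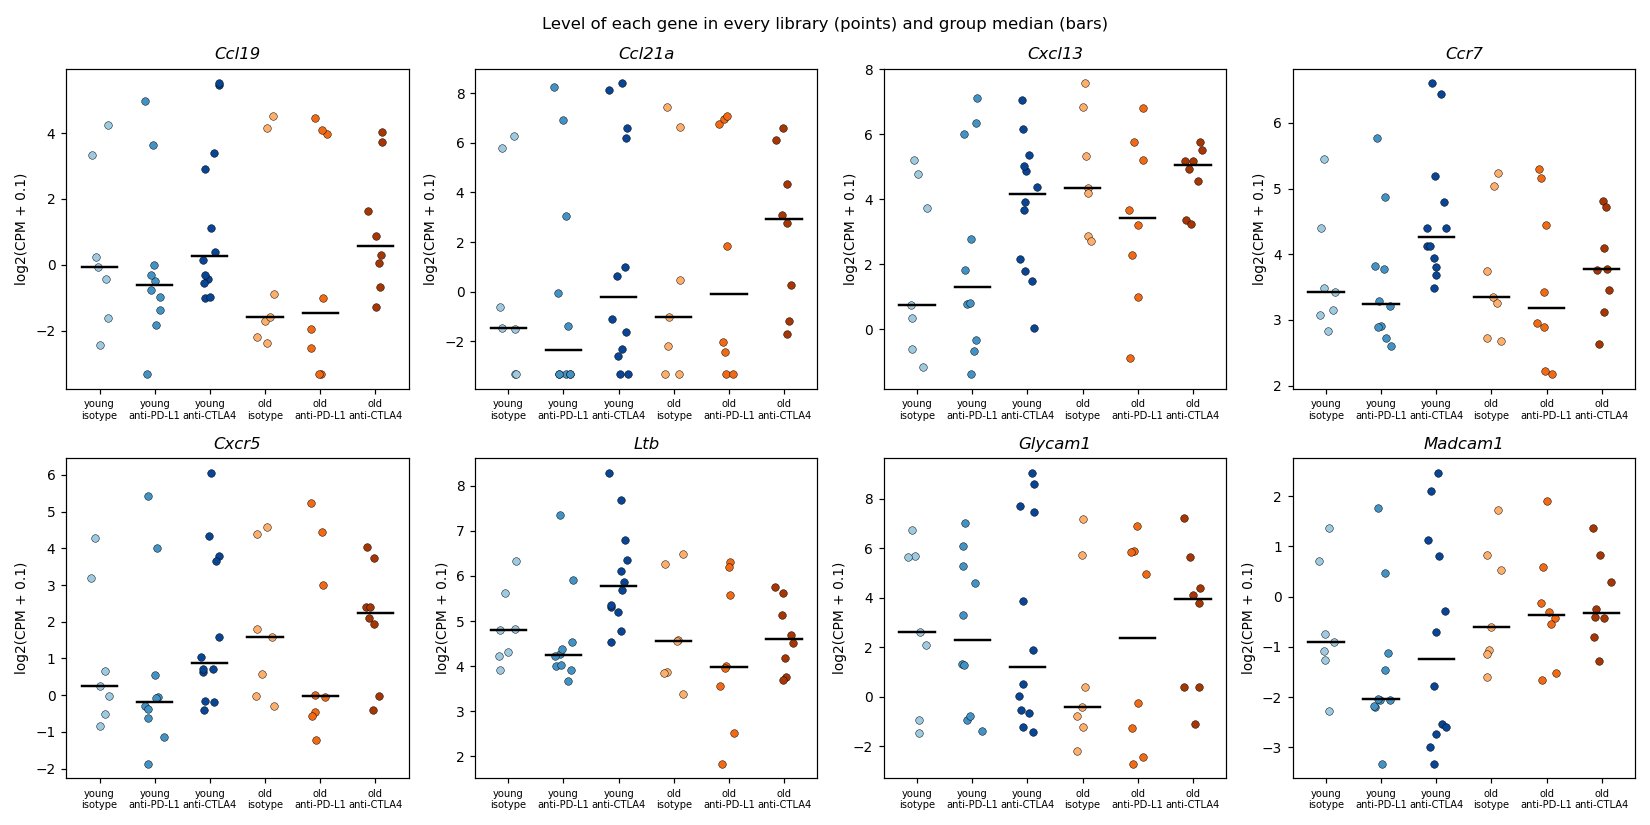
Level of each of the 8 genes as log2(CPM + 0.1), 1 point per library in 6 groups, with bars at group medians. For Ccl21a every group holds low and high libraries, with a highest of 78.0 CPM in young isotype and 337.9 CPM in young anti-CTLA4.

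Set beside each other per length, the median TPM over the 52 libraries was 23.6 for Ltb, 12.8 for Cxcl13, 8.48 for Glycam1, 7.33 for Ccr7, 1.37 for Ccl19, 0.690 for Ccl21a, 0.595 for Cxcr5 and 0.401 for Madcam1. In this order neighbouring genes differed by less than the range of either over the libraries. The order of the medians is not that of the highest libraries, since Glycam1 and Ccl21a reached 933.7 and 438.8 TPM.

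Few genes varied as much between libraries of a group. The residual SD of log2 CPM after group and batch was 4.25 for Ccl21a, larger than in 99.98% of the 17899 tested genes. It was 3.64 for Glycam1, 2.63 for Ccl19, 2.24 for Cxcl13 and 2.05 for Cxcr5, and the median gene was at 0.45. Madcam1 at 1.498, Ltb at 1.14 and Ccr7 at 0.98 varied less, with 90.97% of genes below Ccr7. The largest gap between neighbouring libraries was 5.57 to 15.1% of a gene's log2 range. For Ccl21a and Ccl19 that gap, 1.43 and 1.27 on the log2 scale, had 37 libraries below it in each gene. Whether the libraries form separate clusters was not tested.

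High and low libraries were shared between the genes. Over 52 libraries, Pearson's r of log2 CPM (prior count 2) was positive in 28 of 28 pairs and ran from 0.43 for Cxcl13 with Glycam1 to 0.95 for Ccr7 with Ltb (median 0.77). Spearman's rho ran from 0.49 to 0.92. All 28 pairs passed a permutation test of 100000 resamples with Benjamini-Hochberg adjustment over the 28 pairs, and 28, 25 and 27 did so within batches 1, 2 and 3. Of ligands with their own receptors, Ccl19 with Ccr7 had r = 0.89 and rho = 0.83, Ccl21a with Ccr7 r = 0.80 and rho = 0.70, and Cxcl13 with Cxcr5 r = 0.83 and rho = 0.87, with permutation p = 1e-05, the smallest these resamples can give, and adjusted p = 1.12e-05 for r. Pairs that are not ligand and receptor were as high, with r = 0.92 for Ccl21a with Cxcr5 and 0.91 for Ccl19 with Cxcr5. Without the 2 libraries farthest from the median, r over the pairs ran from 0.46 to 0.93. Within batches it ran from 0.59 to 0.97 in batch 1 (22 libraries), 0.25 to 0.93 in batch 2 (19 libraries) and 0.48 to 0.97 in batch 3 (11 libraries). With group and batch removed it ran from 0.48 to 0.95. The libraries also share their depth and their content of other cell types, whose part in these relations was not tested.

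Each gene was then set against the level of 16 marker lists of cell types, the mean log2 CPM of a list's genes in a library. Cxcr5 and the B cell list (12 genes, among them Ms4a1 and Cd79a) had the highest r of all 128 relations, at 0.98 (rho = 0.93). The chemokines Ccl19 and Ccl21a stood at r = 0.93 each with that list, Cxcl13 at 0.82, Madcam1 at 0.79 and Glycam1 at 0.78. With the follicular dendritic and reticular list, r was 0.95 for Cxcr5, 0.94 for Ccl19, 0.92 for Ccl21a and 0.81 for Glycam1, and for Ccl19 and Glycam1 this was the highest of the 16 lists. Ltb and Ccr7 had their highest r with the T cell list, at 0.96 and 0.95 (Ccr7 at 0.95 also with mature dendritic cell markers). Of 128 relations 88 passed the permutation test with adjustment over all 128, and within batches 91, 59 and 63 did so in batches 1, 2 and 3. Lymphatic endothelium markers gave r = 0.90 with Ccl21a and 0.89 with Ccl19, whereas the high endothelial venule list gave 0.62 and 0.74. Against tumour epithelium all 8 were negative, from -0.57 for Ccr7 and Ltb to -0.26 for Cxcl13, and within batches the values stayed negative except Cxcl13 in batch 1 (0.025). By Spearman's rho these relations were weaker, from -0.39 for Ltb to -0.067 for Madcam1. On the TPM scale Pearson's r was weaker too, from -0.27 for Ltb to 0.014 for Cxcl13. That follicular and reticular list holds Cr2 and Fcer2a, which B cells express too.

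**Figure D2:**
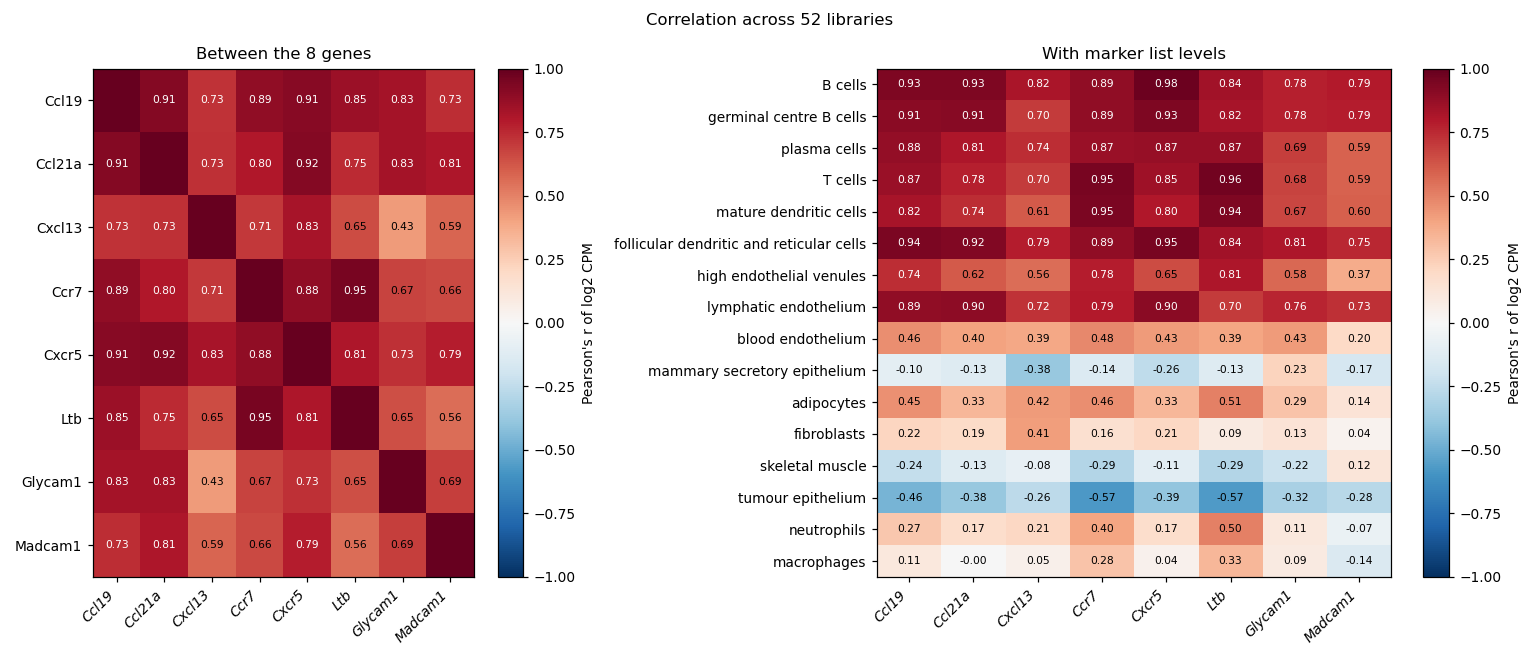
Pearson's r of log2 CPM over 52 libraries, between the 8 genes (left) and between each gene and the level of 16 marker lists (right). Values between the genes run from 0.43 to 0.95, and Cxcr5 reaches 0.98 with B cell markers.

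All 16 libraries with Ccl21a at 10 CPM or more had a B cell level of 3.58 to 6.98, and no library below 10 CPM exceeded 3.01. Summed over the 12 B cell genes, the lowest, median and highest CPM were 15.03, 28.3 and 660.4 in young isotype, 20.5, 28.4 and 1420 in young anti-PD-L1, and 23.5, 57.2 and 1993 in young anti-CTLA4. In the old groups they were 16.8, 94.8 and 767.2, then 10.4, 30.9 and 876.2, then 18.5, 104.1 and 510.7. No gene of the list was at 0 in every library. The labels do not say whether a lymph node was taken with any tumour.

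By Spearman's rho over the 52 libraries among 13159 genes, the genes most like each of the 8 were ranked. Ccl21a was most like Cr2 (0.90) and Dtx1 (0.87), and Cxcr5 was most like Cd79b (0.94), Ighd (0.94) and Cd79a (0.93). Cxcl13 was nearest to the B cell genes Ms4a1, Fcrl1 (both 0.87) and Blk (0.86), and Ccl19 to Gimap1 (0.89), Rhof (0.88) and Spib (0.88). Ltb was nearest to Ptprcap (0.98), Tbc1d10c (0.97) and the T cell adhesion receptor Cd2 (0.96), and Ccr7 to Cd2 and Gpr18 (both 0.94) and Ctse (0.93). Likeness was lower for the addressins, with Madcam1 nearest to Ell3 (0.83), Btla (0.81) and Timd4 (0.79). Glycam1 was nearest to Marco, Dsc3 and Il4i1 (all 0.80).

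Glycam1 departed from the others in 5 libraries, which had Glycam1 at 10 CPM or more with Ccl21a under 1 CPM and were picked after their values were seen. Glycam1 was at 50.8 CPM in young isotype replicate 7, 39.2 and 23.9 in young anti-PD-L1 replicates 7 and 8, 31.2 in old anti-PD-L1 replicate 4 and 14.4 in young anti-CTLA4 replicate 2. Ccl21a in the same libraries was at 0, 0, 0.876, 0.145 and 0.363 CPM. Csn2, which encodes the milk protein beta-casein, was at 121 to 297 CPM there. These 5 libraries held the 5 highest levels of the mammary secretory list, 4.13 to 5.09, against at most 3.92 in the other 47. Their B cell level was at most 0.41, and Chst4, a sulfotransferase of high endothelial venules, was at most 0.177 CPM. In the 16 libraries with Ccl21a at 10 CPM or more, Glycam1 was at 21.2 to 535.6 CPM and Chst4 at 0.214 to 4.99 CPM. In the 20 libraries with at least 50 counts of both, Ccl21a was 0.271 to 1.56 times Glycam1 in TPM (median 0.596). Across all 52 libraries Glycam1 and the mammary secretory list had r = 0.23 and rho = 0.22 (permutation p = 0.107 and 0.119, adjusted p = 0.14 and 0.155). The r was 0.12 in batch 1, 0.50 in batch 2 and 0.32 in batch 3, and the other 7 genes were negative over all libraries, from -0.38 for Cxcl13 to -0.099 for Ccl19. Within batch 3 (11 libraries) 6 of those 7 were positive instead, from 0.26 for Cxcl13 to 0.46 for Ccr7. The part of milk-secreting epithelium in Glycam1 levels was not tested.

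**Figure D3:**
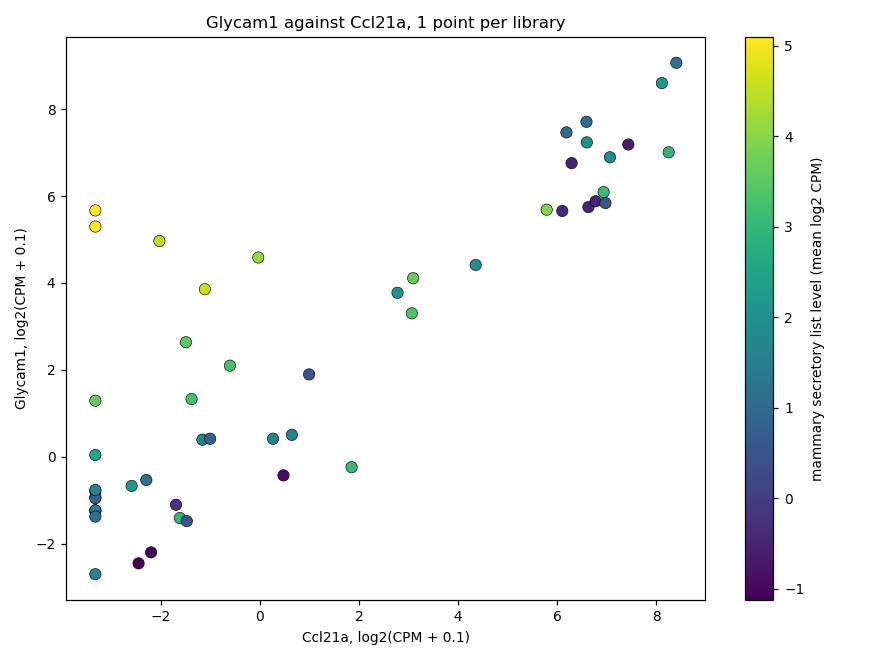
Glycam1 against Ccl21a as log2(CPM + 0.1), 1 point per library, coloured by the level of the mammary secretory marker list. The 5 libraries with Glycam1 at 14.4 to 50.8 CPM and Ccl21a under 1 CPM have the highest list levels.

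Old and young mice were compared under each antibody. Under anti-CTLA4, Ltb fell in old mice, from 88.3 ± 86.9 CPM (SD, n = 12) in young to 28.9 ± 15.8 CPM (SD, n = 8) in old. The log2 fold change was -2.06 ± 0.61 (SE) with edgeR adjusted p = 0.00878, and 8 of 8 old libraries were below the young median, with overlapping groups. It was the only 1 of the 8 genes called, 1 lower, where 15.9% of the 17899 tested genes were called lower and 30.6% were called in either direction. The call was lost without young anti-CTLA4 replicate 8, the highest library in CPM (-1.51, edgeR adjusted p = 0.0935), and held in the 19 fits that left out another library. It was also lost without the 4 libraries of low TMM factor, of which that replicate is 1 (-1.43, edgeR adjusted p = 0.107). On the TPM scale replicate 7 was higher in Ltb, at 232.1 against 157.1 in replicate 8. In batch 1 alone, 7 old against 4 young libraries, the log2 fold change was -2.10 ± 0.57 with edgeR adjusted p = 0.0232. Those 4 young libraries include replicate 8, so this fit does not stand apart from that library. Fitted Ltb was also lower in old mice under anti-PD-L1 (-1.78 ± 0.90, edgeR adjusted p = 0.247) and isotype (-1.32 ± 0.92, edgeR adjusted p = 0.381), without a call. The anti-CTLA4 effect on Ltb differed between old and young mice by -0.75 ± 0.97 (edgeR adjusted p = 0.782). The lower Ltb is thus not shown to be particular to anti-CTLA4.

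The other 7 genes did not pass in this comparison. Ccr7 was at 15.5 ± 7.92 CPM in old and 31.5 ± 29.3 CPM in young mice (SD, n = 8 and 12), a log2 difference of -1.32 ± 0.53 with edgeR adjusted p = 0.0533. It passed with DESeq2 (-1.36, adjusted p = 0.0269) and in 6 of 20 fits that left out 1 library. Glycam1 was at -2.67 ± 1.53 (edgeR adjusted p = 0.183), Ccl21a at -2.22 ± 1.83 and Ccl19 at -1.75 ± 1.38. Cxcr5 was at -1.01 ± 1.17, Madcam1 at -0.55 ± 0.84 and Cxcl13 at -0.09 ± 1.07. The median log2 difference over the 8 genes was -1.54, and over all tested genes it was -0.06. With standard errors of 0.53 to 1.83, a missed threshold does not show equal levels.

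Cell type markers moved beside Ltb in this comparison. Shares over all genes were 15.9% lower and 14.8% higher. Of 13 T cell genes, 8 were lower in old mice and none was at 0 in every library, and their summed CPM had a lowest, median and highest of 129.4, 326.7 and 1408 in young and 58.9, 129.0 and 283.9 in old anti-CTLA4 libraries. All 7 neutrophil genes were lower, as were 3 of 7 high endothelial venule genes, 2 of 8 mature dendritic cell genes and 3 of 8 macrophage genes. Of 7 tumour epithelium genes 4 were higher, and 0 of 12 B cell genes were called. All 12 B cell genes had lower fitted values, with a median log2 difference of -1.10 beside -0.06 over all genes. Their summed CPM had a median of 57.2 in young and 104.1 in old anti-CTLA4 libraries. The absence of calls does not show equal B cell levels. Ltb and the T cell level had r = 0.96 and rho = 0.93 over the 52 libraries (permutation p = 1e-05, the smallest possible, adjusted p = 2.1e-05). The part of T cell content in the lower Ltb was not tested.

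**Figure D4:**
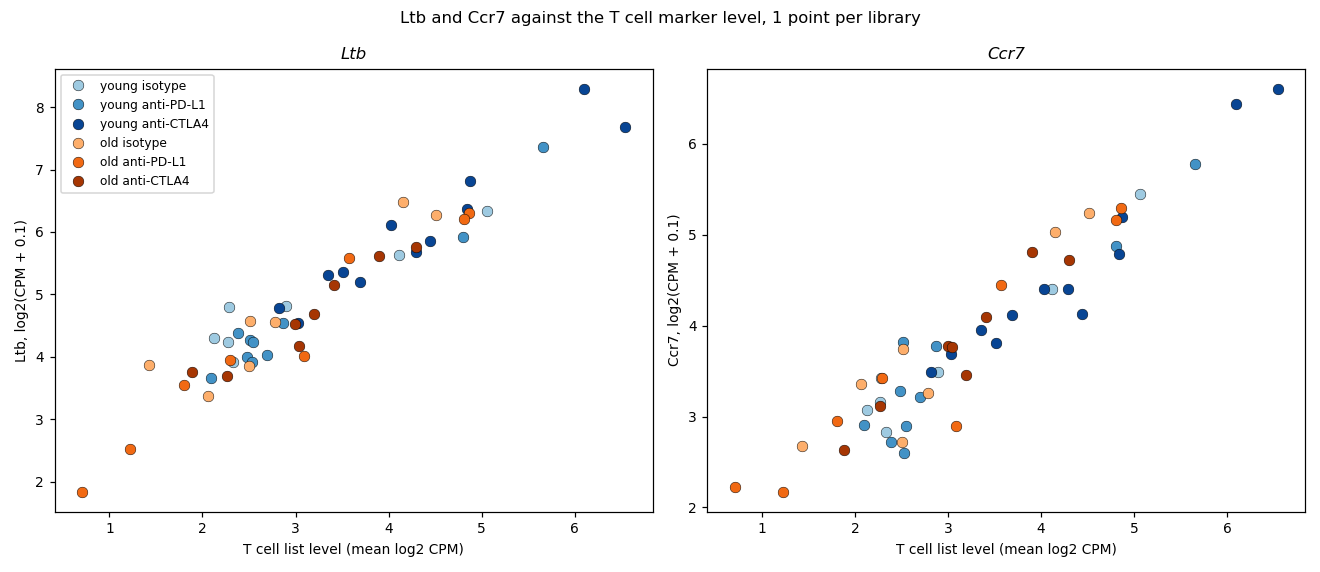
Ltb (left) and Ccr7 (right) as log2(CPM + 0.1) against the T cell list level (mean log2 CPM), 1 point per library, coloured by group. Both rise along the T cell level, with r = 0.96 for Ltb and 0.95 for Ccr7, and young anti-CTLA4 replicates 7 and 8 lie at the top.

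Under isotype and under anti-PD-L1 the old and young groups shared no batch, so age there was separated from batch only through the other groups. None of the 8 genes was called under isotype, where 8.41% of genes were (4.36% higher and 4.04% lower), and their log2 differences ran from -6.06 to 0.05 with standard errors of 0.81 to 3.98 (lowest edgeR adjusted p = 0.28). Under anti-PD-L1 none was called, where 5.04% of genes were (3.08% higher and 1.97% lower), with differences from -7.05 to -0.94 (lowest edgeR adjusted p = 0.247). Such values depended on the batch term. Ccl21a was at 46.5 ± 63.5 CPM (SD, n = 8) in old and 43.5 ± 99.0 CPM (n = 10) in young anti-PD-L1 libraries, yet the fitted difference was -7.05 ± 3.92, and 0.10 with no batch term. DESeq2 called it (-8.67, adjusted p = 0.0399). Likewise Cxcl13 was at 56.6 ± 69.7 CPM in old and 11.6 ± 14.95 CPM in young isotype libraries (SD, n = 7 each), with a fitted edgeR difference of 0.05 ± 1.69 and 2.29 ± 1.12 with no batch term (edgeR adjusted p = 0.153). Age and batch cannot be told apart in these values.

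The antibodies were compared with isotype within each age, and these comparisons share their isotype libraries. With anti-PD-L1 in young mice, 0 of 8 genes were called against 1.59% of all genes (0.223% higher and 1.37% lower), with log2 differences from -0.84 to 1.08 (lowest edgeR adjusted p = 0.515). With anti-CTLA4 in young mice 0 of 8 were called against 0.0726% of all genes (0.00559% higher and 0.067% lower), with differences from -4.95 to 0.17 (lowest edgeR adjusted p = 0.885). The lowest was Ccl21a, at -4.95 ± 3.69 although its mean was 65.6 ± 118.1 CPM (SD, n = 12) under anti-CTLA4 and 19.2 ± 33.0 CPM (n = 7) under isotype; with no batch term it was 1.77. In old mice 0 of 8 were called with anti-PD-L1 (differences from -0.81 to 0.21) or with anti-CTLA4 (from -1.11 to -0.13), and 0% of all genes were called by edgeR in either. Among all genes, 5379 and 5321 had an unadjusted p under 0.05 in these old-mouse comparisons, and DESeq2 called 2378 and 1912, but 0 of the 8.

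The effect of each antibody was tested for a difference between ages, and the antibodies were tested against each other. None of the 8 genes was called in the difference of the anti-PD-L1 effect, the difference of the anti-CTLA4 effect, or anti-CTLA4 against anti-PD-L1 in young or old mice, where edgeR called 0% of all genes. All genes at an unadjusted p under 0.05 numbered 655, 1257, 1242 and 243 in that order, and DESeq2 called 31, 18, 13 and 18 genes. At an unadjusted p under 0.05 by edgeR, 0 of the 8 genes qualified in any comparison other than old against young under anti-CTLA4, where 2 did.

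**Figure D5:**
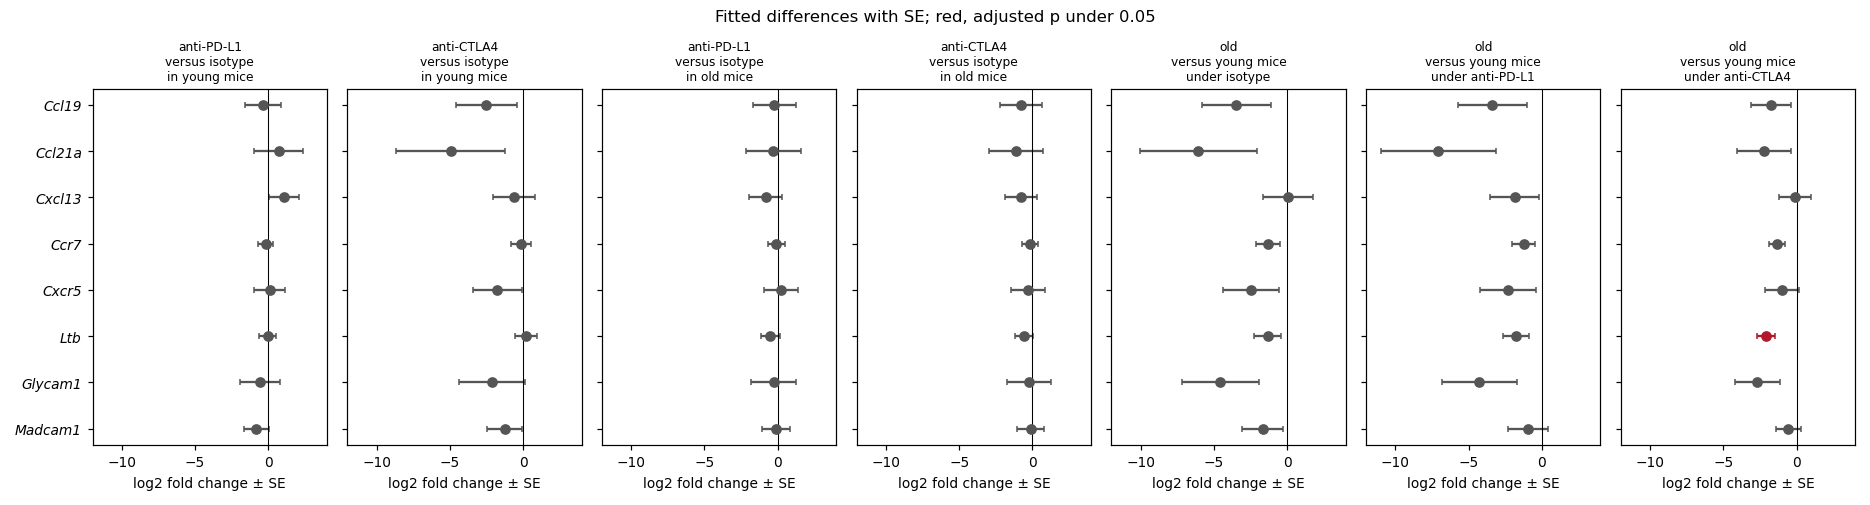
Fitted log2 fold change with its SE (bars) of each gene in 7 comparisons, with red for an adjusted p under 0.05. Ltb in old versus young mice under anti-CTLA4, at -2.06, is the only red point.

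The rest of the pathway was followed in 53 further genes of homing, lymphotoxin signalling, adhesion and oxysterol guidance, of which 49 were tested. In old against young mice under anti-CTLA4, 18 were lower and 0 higher, against 15.9% and 14.8% of all genes, with a median of -0.62 beside -0.06 over all genes. The lymphotoxin group held 7 of these among 17 genes. In the same comparison 7 of 7 neutrophil, 8 of 13 T cell and 3 of 8 macrophage genes were lower. Of 12 B cell genes 0 were called, though all 12 had lower fitted values (median -1.10). The part of these cells in the pathway values was not tested. Tnf, the related cytokine of the same locus, fell from 9.15 ± 4.04 CPM (SD, n = 12) to 3.07 ± 0.81 CPM (n = 8), -1.90 ± 0.26, edgeR adjusted p = 1.69e-06. Lta, the partner of Ltb in the membrane trimer, fell by 1.94 on the log2 scale (edgeR adjusted p = 0.0136), a call lost without young anti-CTLA4 replicate 8 (-1.61, adjusted p = 0.0759) and in batch 1 alone (-1.85, adjusted p = 0.0526). Tnfsf14 (LIGHT), another ligand of the lymphotoxin beta receptor, was at -1.04 ± 0.25, and Relb, the transcription factor of the non-canonical pathway, at -0.59 ± 0.13 (edgeR adjusted p = 0.00161 and 0.00039).

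In old against young mice under anti-CTLA4, where 15.9% of all genes were called lower, 5 of 10 homing receptors were lower. Among them were the integrin chain Itgb2 (-0.91 ± 0.17) and the selectin ligand Selplg (-1.34 ± 0.30), with edgeR adjusted p = 7.41e-05 and 0.000648. In the adhesion group 3 of 13 were lower, with Icam1, the ligand of the integrin LFA-1, at -1.06 ± 0.21 (edgeR adjusted p = 0.000146). Of 3 oxysterol genes 1 was lower, Ch25h, the enzyme that makes 25-hydroxycholesterol, at -1.23 ± 0.24 (edgeR adjusted p = 0.000174). Of 6 tested ligands and scavenging receptors 2 were lower. In groups of this size 1 call moves the share much, and no group was tested against the 15.9%. Under isotype 2 of 49 were lower, a share near the 4.04% of all genes called lower, namely Ch25h (-1.43 ± 0.36, edgeR adjusted p = 0.01) and Relb (-0.61 ± 0.19, 0.0373), and 0 were higher. Under anti-PD-L1 4 of 49 were lower, against 1.97% of all genes: Ch25h, Tnf, Relb and the scavenging receptor Ackr3 (-1.38, -1.49, -0.70 and -1.24). In that comparison 4 of 7 neutrophil genes were lower too, with a list median of -2.01, and their part in these values was not tested. With anti-PD-L1 in young mice 1 of 49 was higher, against 0.223% of all genes. This was the endothelial selectin Selp (1.12 ± 0.31, edgeR adjusted p = 0.0483), lost without the libraries of low TMM factor (adjusted p = 0.342). Without the filter on low counts Relb was no longer called under isotype or anti-PD-L1 (edgeR adjusted p = 0.152 and 0.0812), nor was Ackr3 (0.0908). With no batch term Tnf was not called under anti-PD-L1 (edgeR adjusted p = 0.128), nor Relb under isotype (0.099). In the other 7 comparisons 0 of 49 were called.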

How the data were processed

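From each of 52 tumours, 500 ng of RNA went into stranded poly(A) libraries, read as pairs of 75 bases. Per the submitters' processing notes the authors used Salmon, DESeq2 1.16.1 and build mm10. The authors deposited whole-number estimated counts per Ensembl gene and TPM of the same libraries. The labels do not state how transcripts were summed to genes or whether strand was used. GENCODE vM21 gave symbols for 47224 of 47729 identifiers.

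Counts were tested with edgeR 4.0.16 (R 4.3.3): filterByExpr by group with a minimum count of 10 (17899 genes kept), TMM factors, 1 quasi-likelihood fit over all 52 libraries with group and sequencing batch, and Benjamini-Hochberg adjustment over all genes; a gene was called at an adjusted p under 0.05. Correlations used two-sided permutation tests with 100000 resamples. For old against young mice under anti-CTLA4, 17899 genes were simulated. The fit recovered 61 of 100 genes changed 2-fold and 85 of 100 changed 4-fold, with 7 false calls among 17699 unchanged genes. The real comparison called 30.6% of genes, a larger share than was changed in the simulation. The homing genes described had residual SDs from 0.98 (Ccr7) to 4.25 (Ccl21a), against 0.45 for the median gene. Recovery was not given apart for genes of such spread, so these rates cannot be taken over to them.

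Alternatives were DESeq2 1.42.0, fits without the low-count filter (36654 genes), with relative log expression factors, without batch, on the compared groups alone, on single batches, the replicate number as a block and leaving out each library in old against young mice under anti-CTLA4. Dropping the 4 libraries whose TMM factor was below 0.8 and the newer fit of edgeR (legacy=FALSE) were chosen after seeing the data. The 8 genes, the lists and the tests were chosen with earlier results of these data known. The rule for named genes took the 8 genes, the 5 genes of highest Spearman's rho with each among genes averaging 1 CPM or more, and pathway genes that passed or had the smallest p, and examples of both kinds are given; 1 gene among the nearest is left out for reasons other than its values.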

Additional observations from a re-analysis of the deposited data

How the results depend on the processing

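The count of the 8 genes called in old against young mice under anti-CTLA4, 1 by edgeR, was 2 with relative log expression factors, DESeq2, the newer edgeR fit and only the groups compared, 0 without libraries of low TMM factor, and 0 to 2 with each library left out. Ccr7 was the added gene (adjusted p = 0.0489, 0.0269, 0.0475 and 0.0303 in that order). The count under anti-PD-L1 was 1 with DESeq2 instead of 0. Cxcl13 in old against young mice under anti-CTLA4 reversed to 0.0069 with no batch term, 0.56 without libraries of low TMM factor and 0.18 in batch 1, and ran from -0.35 to 0.43 with each library left out. Madcam1 reversed to 0.13 without libraries of low TMM factor and ran from -0.87 to 0.059 with each left out. Ltb ran from -2.27 to -1.51. With no batch term, Ccl21a reversed to 0.10 in old against young mice under anti-PD-L1 and to 1.77 for anti-CTLA4 against isotype in young mice, and Cxcl13 under isotype reversed to -0.01 with DESeq2. The cause was not tested.

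With the replicate block, 0 of the 8 genes were called in old against young mice under anti-CTLA4, Ltb being at -1.75 (edgeR adjusted p = 0.0649), and signs reversed for Ccl21a (1.17), Cxcl13 (0.036) and Cxcr5 (0.19) there and for Cxcl13 under isotype (-1.68). The labels do not say that the numbers pair the libraries. Same-numbered libraries of different groups correlated from -0.558 to 0.592 (113 pairs, median -0.002), and other pairs between groups had a median of 0.013. Of 52 libraries 6 were best matched to their own number. Such correlations cannot exclude a pairing. Over the 8 genes and 11 comparisons, 40 of 88 values had the opposite sign with no batch term and 24 of 88 under the block.

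Of the other 49 pathway genes, the replicate block gave 11 called instead of 18 in old against young mice under anti-CTLA4, 0 instead of 4 under anti-PD-L1, 1 instead of 2 under isotype and 0 instead of 1 for anti-PD-L1 in young mice. No filter gave 2, 1 and 0 in the last 3 of these, and 1 instead of 0 for each antibody in old mice. DESeq2 gave 5 under isotype, 2 for anti-PD-L1 in young mice, and 1 and 3 for anti-PD-L1 and anti-CTLA4 in old mice. No batch term gave 9 under anti-PD-L1, 4 under isotype, 10 for anti-CTLA4 in young mice and 1 for anti-CTLA4 against anti-PD-L1 in young mice. Without libraries of low TMM factor 4 were called under isotype and 0 for anti-PD-L1 in young mice. The share of all genes called also changes between fits and is not set beside these counts. They show how the calls depend on processing and are no result about these genes. The groups compared could not be fitted alone under isotype or anti-PD-L1, where age and batch are the same split. At these depths, genes under about 1 CPM rest on few counts.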
